A study of Mus musculus with 7 samples.

Results

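The 10 genes described here encode the mouse TGF-β ligands (Tgfb1, Tgfb2 and Tgfb3), their receptors (Tgfbr1, Tgfbr2 and Tgfbr3) and the latent TGF-β binding proteins (Ltbp1, Ltbp2, Ltbp3 and Ltbp4). They were chosen by name and not by their values, but with earlier results of these data known. They are 10 of the 53465 genes in the table of RSEM estimated counts. TGF-β is secreted in an inactive form, wrapped in its own propeptide, which a latent binding protein couples to the extracellular matrix. Integrins and proteases release the ligand, which then assembles the type II and type I receptor kinases and signals through SMAD transcription factors. In tumors the pathway is known for restraining epithelial growth, driving matrix production and damping T-cell responses.

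The libraries came from EMT6 mouse mammary carcinoma grown in the mammary fat pads of female BALB/c mice, 6 to 8 weeks old at the start, after implantation of 500000 cells on day 0. From day 1 the animals were given 250 μg per mouse of isotype control antibody (EMT6-P, 3 primary tumors) or of anti-mouse PD-L1 (αPD-L1) every 3 days until endpoint. Tumors that had resisted αPD-L1 are called EMT6-PTR (3 primary tumors; the sample labels write PDR), and 1 EMT6-PTR metastasis, with no replicate and no site given in its labels, was also sequenced. The EMT6-P tumors are antibody-treated controls rather than untreated ones, and all libraries derive from 1 cell line. Each primary library is called a tumor below, though separate animals are not stated. Poly(A) RNA of whole tissue was measured, so fewer cells of a type and less RNA per cell cannot be told apart in any value below.

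The libraries held 20430110 to 25213472 estimated counts, and single members held 264 to 11563 counts per tumor or metastasis. EMT6-PTR replicate 3 stood apart from the other 5 tumors. Its summed level of proliferation markers was 99.8 CPM (counts scaled to a common library size) against 699 to 845 in the others (5 of 5 genes more than 2-fold below). Its carcinoma epithelium markers summed to 593 CPM against 2111 to 2343, with 2 of 5 genes, Krt8 and Krt18, more than 2-fold below. Its pericyte and smooth muscle markers summed to 82.2 CPM against 647 to 1120 (4 of 6 below, Cnn1 at 0), and its fibroblast markers to 12377 CPM against 5014 to 7504 (4 of 8 above, 1 below). Skeletal muscle markers summed to 3985 CPM in EMT6-PTR replicate 1, 594 in EMT6-P replicate 1 and 339 in EMT6-P replicate 3, and to at most 11.2 elsewhere. In EMT6-PTR replicate 2 the gene CT010467.1 took 13.8% of all counts against 0.433 to 1.35% in the other libraries. In the metastasis all 5 lung epithelium markers were present (8038 CPM in sum against at most 26.0 in any primary tumor), and endothelium markers summed to 854 CPM against at most 163. Macrophage markers summed to 964 to 1407 CPM and T-cell markers to 5.36 to 29.2 in all 7 libraries. The sum of platelet and megakaryocyte markers was lower in every EMT6-PTR tumor (13.6 to 17.0 CPM against 24.4 to 52.1 in EMT6-P). This came mostly from Pf4 (5.15 to 13.2 CPM against 20.6 to 47.2). Gp9 was higher in every EMT6-PTR tumor (0.273 to 0.334 against 0 to 0.186). Itga2b (6.64 CPM) and Gp1ba (2.34 CPM) in EMT6-PTR replicate 3 were more than 2-fold above the other 5 tumors. The sum of adipocyte markers was slightly higher in every EMT6-PTR tumor (20.4 to 30.3 against 9.74 to 20.3), nearly all of it Fabp4. Each of the other adipocyte genes stayed at or below 1.61 CPM, and none was higher in every EMT6-PTR tumor. Epcam and Cdh1, epithelial adhesion genes, reached no more than 10.6 and 9.68 CPM in the primary tumors, where Krt8 lay between 505 and 1903. The part of these differences in the results below was not tested, except where values without a library are given.

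All 10 members passed the filter on low counts, and 0 of 10 were called between EMT6-PTR and EMT6-P by edgeR's quasi-likelihood test at an adjusted p under 0.05, against 0.0% of the 15645 genes tested. Unadjusted p was under 0.05 for 1 member (Tgfb3, higher), against 11.4% of all genes (1786 genes, 5.84% higher and 5.57% lower in EMT6-PTR). DESeq2 called 281 of the 13694 genes to which it gave an adjusted p (2.05%) and limma-voom called 0, and neither called a member. Tgfbr3 had no adjusted p in DESeq2. Tgfb3 was also the only member whose tumor groups did not overlap, higher in EMT6-PTR, where 9.59% of all genes had this order and 11.7% the opposite one. The fitted log2 fold change was above 0 for 7 members and below 0 for 3, where 52.3% of all genes were above 0. The median was 0.32 beside 0.03 over all genes. This lean depended on 1 library. Without EMT6-PTR replicate 3, Tgfbr3 (-0.46), Ltbp1 (-0.08) and Ltbp3 (-0.06) fell below 0 and no member rose above it. Differences that miss the threshold with 3 tumors per group are not shown to be absent.

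**Figure D1:**
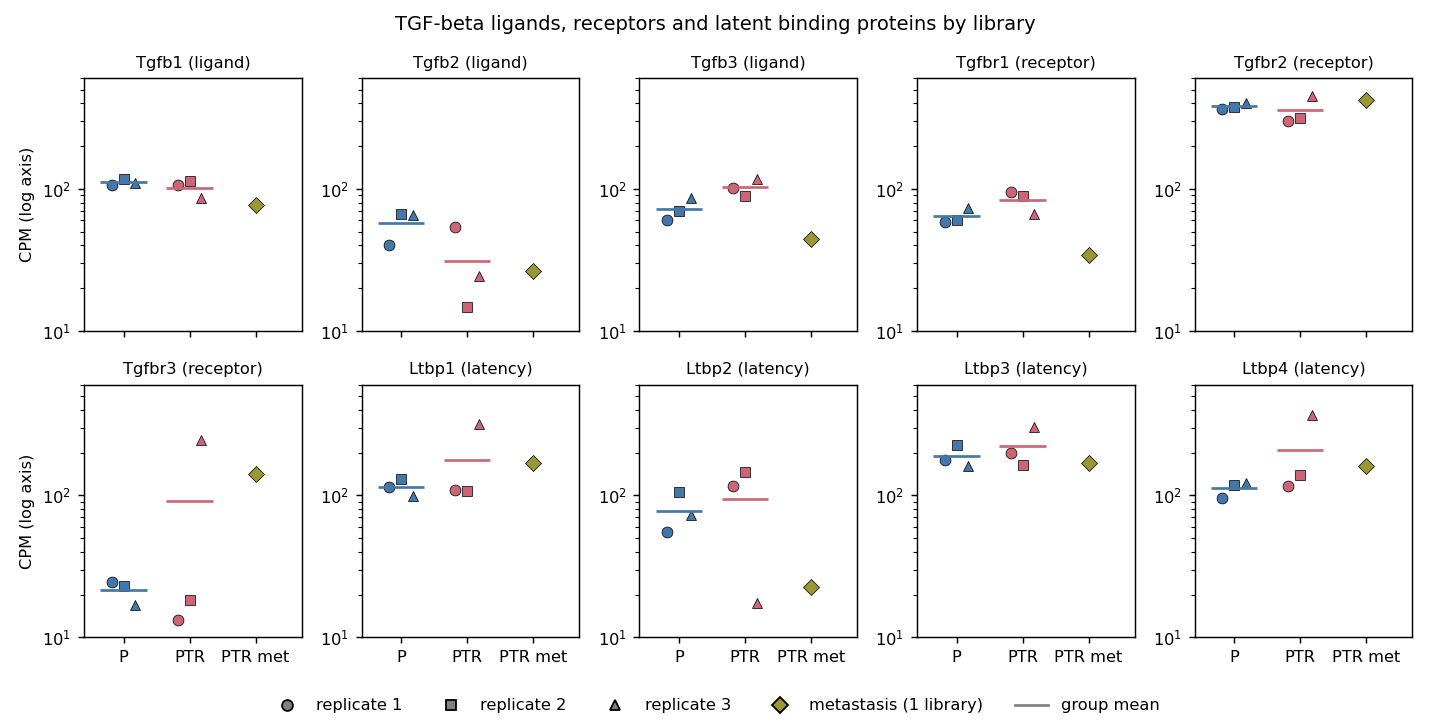
CPM of each member (y axis, log scale) in the EMT6-P tumors (P), the EMT6-PTR tumors (PTR) and the EMT6-PTR metastasis (PTR met), with 1 point per library and a line at each group mean. Tgfb3 alone has every EMT6-PTR tumor above every EMT6-P tumor, and EMT6-PTR replicate 3 (triangle) lies far from its group for Tgfbr3, Ltbp1, Ltbp2 and Ltbp4.

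Among the ligands, Tgfb1, the isoform most widely made in adult tissues and by immune cells (chr7:25687002-25705077, GRCm38, plus strand), was the most even. It measured 107, 117 and 110.5 CPM in EMT6-P replicates 1 to 3 and 106, 113 and 86.1 CPM in EMT6-PTR replicates 1 to 3. The groups overlapped, with replicate 1 of EMT6-PTR just below and replicate 3 further below every EMT6-P tumor. Its log2 fold change was -0.14 (SE 0.14, adjusted p = 0.705, edgeR), and the highest tumor was 1.36 times the lowest, less than the median of 1.92 times over all genes.

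Tgfb2, an isoform that needs the co-receptor betaglycan for high-affinity binding (chr1:186622792-186705989, minus strand), was the most uneven ligand. EMT6-P replicates 1 to 3 had 40.0, 66.7 and 65.5 CPM, and EMT6-PTR replicates 1 to 3 had 53.8, 14.7 and 24.4 CPM. EMT6-PTR replicate 1 sat inside the EMT6-P range, whereas the other two resistant tumors lay below it. The fitted log2 fold change of -0.89 (SE 0.48, adjusted p = 0.493, edgeR) took values between -1.55 and -0.55 as each tumor was left out. The study had placed Tgfb2 on a list of secreted genes lower in resistance that it drew from these libraries, so its direction is no independent evidence.

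Tgfb3, an isoform best known from palate and wound healing (chr12:86056745-86079041, minus strand), had 60.0, 70.2 and 86.4 CPM in the EMT6-P tumors. The EMT6-PTR tumors had 101, 89.7 and 118 CPM, so that the lowest of them lay just above the highest EMT6-P tumor. The difference of 0.51 on the log2 scale (SE 0.19, 1.42-fold) had unadjusted p = 0.0306 and adjusted p = 0.427 in edgeR. It lay between 0.39 and 0.66 with each tumor left out, and was 0.40 (SE 0.17) without EMT6-PTR replicate 3. Tgfb3 shares 163 exonic bases with the opposite-strand locus Gm37804, which held 6.11 to 35.91 counts against 1110 to 3024 for Tgfb3, and whether the counting used strand is not given in the sources used here.

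The proximal promoters of the most even and the most uneven ligand are shown as the 250 bases before the RefSeq start site (GRCm38.p6), in the direction of transcription. That of Tgfb1 lies at chr7:25686752-25687001 (plus strand), with GC boxes in capitals (GGGCGG on either strand). That of Tgfb2 lies at chr1:186705990-186706239 (minus strand), with an E-box (CACGTG) and a TATA box (TATAAA on either strand) in capitals.
Tgfb1: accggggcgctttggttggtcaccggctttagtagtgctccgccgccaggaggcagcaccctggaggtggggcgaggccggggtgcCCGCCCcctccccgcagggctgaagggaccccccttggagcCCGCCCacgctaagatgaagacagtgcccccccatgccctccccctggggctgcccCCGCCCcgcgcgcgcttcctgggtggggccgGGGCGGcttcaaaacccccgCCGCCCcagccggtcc
Tgfb2: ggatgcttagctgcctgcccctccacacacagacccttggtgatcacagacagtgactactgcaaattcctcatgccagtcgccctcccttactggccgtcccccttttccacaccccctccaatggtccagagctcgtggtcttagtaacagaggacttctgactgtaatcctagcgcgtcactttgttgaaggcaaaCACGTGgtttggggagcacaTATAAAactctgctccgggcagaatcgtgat
The Tgfb1 window was 75.2% G and C and held 5 GC boxes but neither TATAAA nor CACGTG. The Tgfb2 window was 53.6% G and C, with TATAAA starting 31 bases and CACGTG 51 bases before the start site and no GC box. Of 32851 promoters of the same length, 32.7% held a GC box, 12.4% TATAAA, 6.02% CACGTG and 0.517% both of the latter, and the median GC content was 52.4%. Promoters of 8 members were in the table, and Tgfb2 alone among them held TATAAA or CACGTG. None of these motifs overlapped another within either window. A match is a description of letters and not of a bound site.

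Levels of different genes were compared per kilobase of merged exons. On that scale the ligands stood at 22.1 ± 0.994 (Tgfb1), 9.91 ± 2.60 (Tgfb2) and 21.3 ± 3.94 (Tgfb3) CPM per kb in EMT6-P (mean ± SD, n = 3). In EMT6-PTR they stood at 20.1 ± 2.73, 5.35 ± 3.52 and 30.4 ± 4.22 CPM per kb in the same order. Tgfb1 and Tgfb3 overlapped in EMT6-P, whereas in EMT6-PTR every Tgfb3 value exceeded every Tgfb1 value. With the longest transcript as the length (2573 bases for Tgfb1 in place of 5042 bases of merged exons) the ranges overlapped and the order of the means turned, with Tgfb1 at 33.4 to 43.8 and Tgfb3 at 26.5 to 34.9 CPM per kb in EMT6-PTR. Tgfb3 made up 38.7, 37.4 and 43.5% of the ligand sum in EMT6-P replicates 1 to 3 and 49.6, 51.6 and 62.1% in EMT6-PTR replicates 1 to 3. This share was thus higher in each resistant tumor, by 14.6 percentage points on average (exact two-sided permutation p = 0.1, the smallest that the 20 splits allow, and 0.3 adjusted over the 3 shares). The share of Tgfb2 went from 18.4% ± 2.95 in EMT6-P to 9.31% ± 5.51 in EMT6-PTR (SD, n = 3; exact permutation p = 0.2, adjusted 0.3). The Tgfb1 share was 41.8% ± 4.49 and 36.3% ± 6.64 (SD, n = 3; exact permutation p = 0.3, adjusted 0.3). Shares do not depend on scaling between libraries, but the choice of length moves them. With the longest transcript the Tgfb1 share in EMT6-P was 57.4%, and the Tgfb3 share was still higher in each resistant tumor (36.2 to 47.7% against 26.2 to 31.4%).

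**Figure D2:**
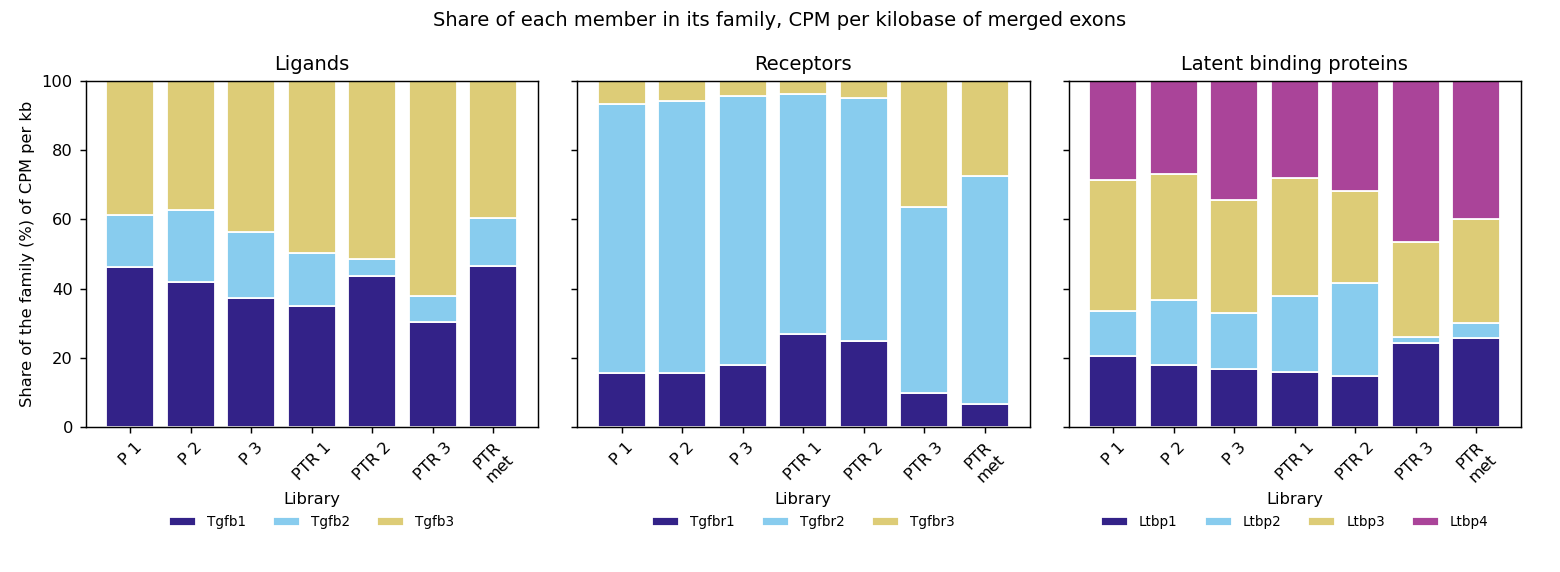
Share (%) of each member in the summed CPM per kilobase of merged exons of its family, for the ligands, the receptors and the latent binding proteins in each library (P, EMT6-P; PTR, EMT6-PTR; met, metastasis). The Tgfb3 share is 49.6 to 62.1% in the EMT6-PTR tumors against 37.4 to 43.5% in EMT6-P, and Tgfbr3 holds 36.3% of the receptors in EMT6-PTR replicate 3 and 27.5% in the metastasis.

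Of the receptors, Tgfbr1, the type I kinase that phosphorylates SMADs (chr4:47353222-47414931, plus strand), measured 58.8, 60.8 and 73.5 CPM in EMT6-P. It measured 94.3, 88.9 and 66.4 CPM in EMT6-PTR. EMT6-PTR replicates 1 and 2 lay above every EMT6-P tumor and replicate 3 inside their range. The group difference was a log2 fold change of 0.37 (SE 0.18, adjusted p = 0.468, edgeR).

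Tgfbr2, the type II kinase that binds ligand first (chr9:116084293-116175360, minus strand), had 367, 379.7 and 401 CPM in EMT6-P and 303, 316 and 451 CPM in EMT6-PTR. EMT6-PTR replicates 1 and 2 were below all EMT6-P tumors, and replicate 3 was above all of them. Its log2 fold change was -0.10 (SE 0.19, adjusted p = 0.844, edgeR) and, with the third resistant tumor left out, -0.31. Per kilobase of merged exons Tgfbr2 was the most abundant member on average in both groups, at 46.7 ± 2.08 CPM per kb in EMT6-P and 43.6 ± 10.0 in EMT6-PTR (SD, n = 3), and in EMT6-P it did not overlap with the next member, Tgfb1. With the longest transcript as the length the ranges of Tgfbr2 and Tgfb1 touched, at 45.3 to 49.5 and 41.6 to 45.4 CPM per kb. Within the receptor sum per kilobase Tgfbr2 held 77.8, 78.4 and 77.9% in EMT6-P and 69.2, 70.2 and 53.8% in EMT6-PTR, lower in each resistant tumor. Which receptor held the rest differed between tumors. The Tgfbr1 share was 27.0 and 24.8% in EMT6-PTR replicates 1 and 2 (15.6 to 17.9% in EMT6-P), and the Tgfbr3 share was 36.3% in replicate 3 (4.15 to 6.56% in EMT6-P). No test was run on the receptor shares.

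Tgfbr3 encodes betaglycan, a proteoglycan co-receptor without a kinase (chr5:107106570-107289629, minus strand). It had 24.7, 23.0 and 17.0 CPM in EMT6-P and 13.2, 18.2 and 244 CPM in EMT6-PTR. A single tumor, EMT6-PTR replicate 3, was 12.7 times the mean of the other 5, which all lay between 13.2 and 24.7 CPM. The log2 fold change of 2.09 (SE 1.10, adjusted p = 0.489, edgeR) turned to -0.46 (SE 0.22) without that tumor. Tgfbr3 was the least abundant member per kilobase in EMT6-P, at 3.30 ± 0.615 CPM per kb (SD, n = 3), and did not overlap there with the next, Ltbp2.

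Of the latent binding proteins, Ltbp1, which couples latent TGF-β to the matrix (chr17:75005568-75392512, plus strand), had 114, 129.9 and 98.5 CPM in EMT6-P. It had 109.9, 107 and 317 CPM in EMT6-PTR. EMT6-PTR replicates 1 and 2 were inside the EMT6-P range and replicate 3 was 2.83 times the mean of the other 5 tumors. The fit gave a log2 fold change of 0.64 (SE 0.45, adjusted p = 0.575, edgeR) and of -0.08 without EMT6-PTR replicate 3.

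Ltbp4, a partner of elastic fibers that also binds latent TGF-β1 (chr7:27305136-27337692, minus strand), gave 96.2, 118 and 122 CPM in EMT6-P and 117, 138 and 367 CPM in EMT6-PTR. Again EMT6-PTR replicate 3 was far above the rest, at 3.11 times the mean of the other 5 tumors, with replicate 2 slightly above and replicate 1 inside the EMT6-P range. The log2 fold change was 0.89 (SE 0.44, adjusted p = 0.476, edgeR) and 0.18 without that tumor. Ltbp3, the other member that binds latent TGF-β (chr19:5740904-5758532, plus strand), showed a smaller departure. Its values were 178, 225 and 162 CPM in EMT6-P and 199.8, 163 and 304 CPM in EMT6-PTR, and its log2 fold change of 0.24 (SE 0.26, adjusted p = 0.718, edgeR) became -0.06 without EMT6-PTR replicate 3.

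Ltbp2 is the family member that does not bind latent TGF-β and is known as a microfibril protein (chr12:84783212-84876532, minus strand). It ran the other way, with 54.9, 106 and 72.8 CPM in EMT6-P and 116, 147 and 17.5 CPM in EMT6-PTR. EMT6-PTR replicates 1 and 2 lay above every EMT6-P tumor and replicate 3 below every one, at 0.176 times the mean of the other 5. Ltbp2 shares 764 exonic bases with the opposite-strand locus D030025P21Rik, which held 3.15 to 55.67 counts against 448 to 2646 for Ltbp2. Leaving out EMT6-PTR replicate 3 moved its log2 fold change from 0.26 (SE 0.70, adjusted p = 0.892, edgeR) to 0.76, and leaving out the second resistant tumor moved it to -0.22.

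**Figure D3:**
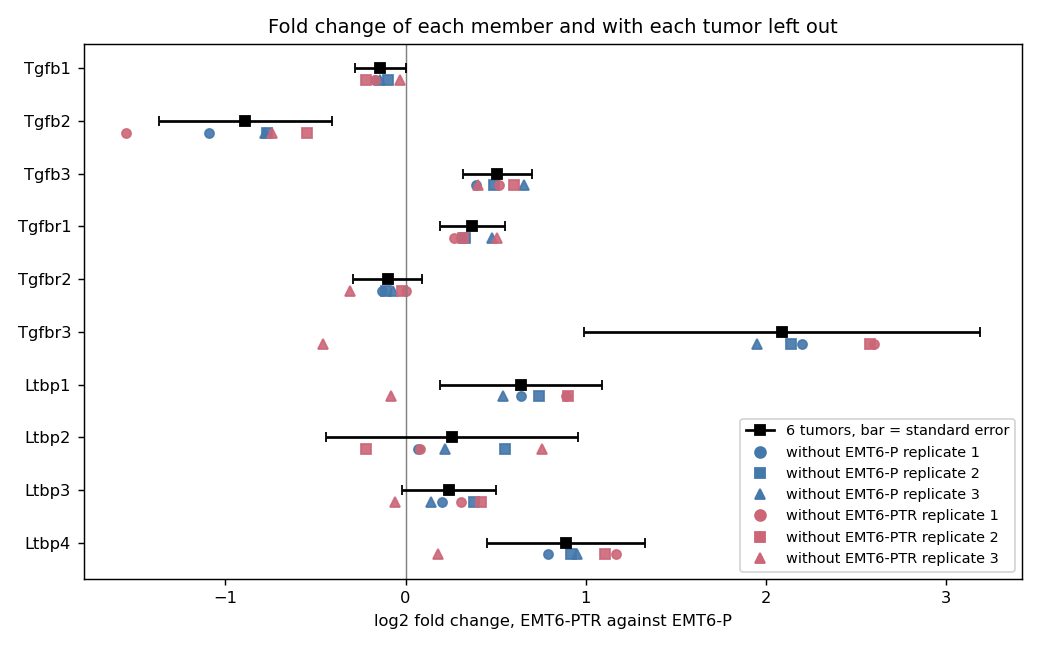
Log2 fold change of each member, EMT6-PTR against EMT6-P (x axis). Black squares are the edgeR fit of 6 tumors with its standard error, and colored points the fit with the named tumor left out. Without EMT6-PTR replicate 3, Tgfbr3 goes from 2.09 to -0.46 and Ltbp4 from 0.89 to 0.18, whereas Tgfb3 stays between 0.39 and 0.66 and Tgfb2 between -1.55 and -0.55.

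EMT6-PTR replicate 3 was thus more than 2-fold above the highest of the other 5 tumors for 3 members (Tgfbr3, Ltbp1 and Ltbp4), against 5.9% of all genes, and more than 2-fold below the lowest for 1 (Ltbp2), against 8.3%. It lay outside the range of the other 5 tumors for 8 of 10 members, against 67.2% of all genes. Beside these values stand the low proliferation, keratin and smooth muscle markers and the high fibroblast markers of the same library, with Dcn at 3342 CPM against 32.3 to 104 in the other 5 tumors. Without that tumor the groups did not overlap for 4 members (Tgfb3, Tgfbr1 and Ltbp2 higher, Tgfbr2 lower), where 40.0% of all genes then did not. The SD of log2 CPM was larger in EMT6-PTR than in EMT6-P for 9 of 10 members, Tgfb3 being the exception, against 83.0% of all genes. The median SD over all genes was 0.39 in EMT6-PTR and 0.15 in EMT6-P.

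**Figure D4:**
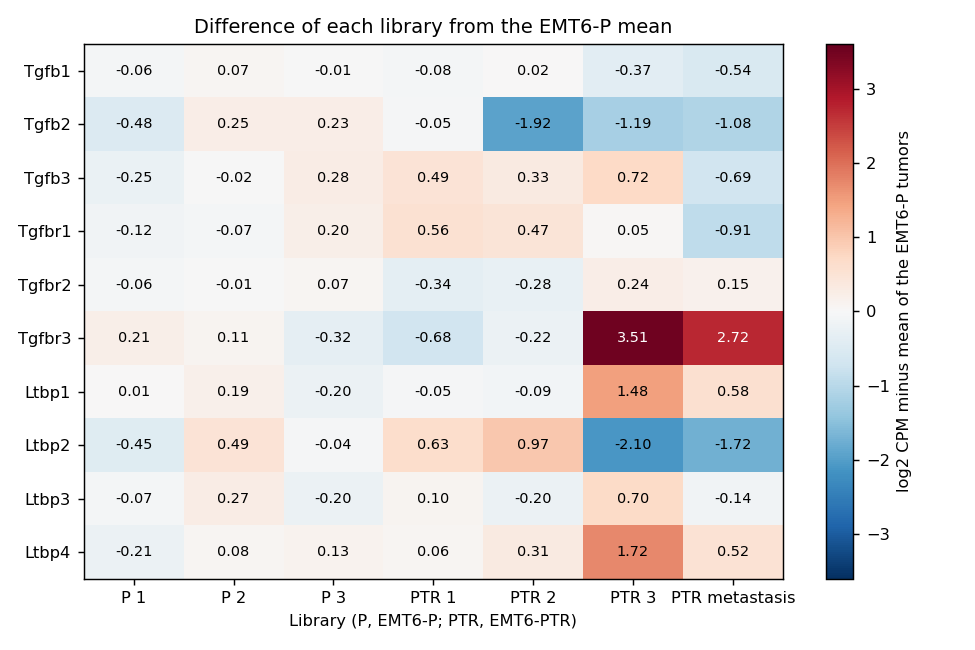
Difference of log2 CPM from the mean of the EMT6-P tumors for each member (rows) in each library (columns), with the value printed in each cell. EMT6-PTR replicate 3 and the metastasis are the libraries with Tgfbr3 far above (3.51 and 2.72) and Ltbp2 far below (-2.10 and -1.72) the EMT6-P mean.

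The metastasis had 76.8 CPM of Tgfb1, 44.1 CPM of Tgfb3 and 34.1 CPM of Tgfbr1, each below all 6 primary tumors. Against the mean log2 CPM of the EMT6-PTR primary tumors it was at least 2-fold lower for 3 members, Tgfb3 (log2 difference -1.21), Tgfbr1 (-1.27) and Ltbp2 (-1.55), where 8.55% of 16004 genes were (21.8% in either direction). It was at least 2-fold higher for 1, Tgfbr3 (1.85), where 13.3% of genes were. Only Tgfb1, Tgfb3 and Tgfbr1 lay outside the range of the EMT6-PTR primary tumors, against 54.9% of genes, and there is no replicate check on these differences. Its Tgfbr3 (141 CPM) and Ltbp2 (22.7 CPM) lay between EMT6-PTR replicate 3 and the other primary tumors. Tgfb2 (26.4 CPM), Tgfbr2 (423 CPM), Ltbp1 (170.1 CPM), Ltbp3 (169.8 CPM) and Ltbp4 (159.7 CPM) were inside the EMT6-PTR range. The lung epithelium markers and, apart from Emcn, the endothelium markers were high in this library. Its proliferation markers (105 CPM in sum) and pericyte and smooth muscle markers (147 CPM) were low, near those of EMT6-PTR replicate 3. In the latter list Myh11 went the other way, at 13.6 CPM against at most 3.85 in the primary tumors. Its carcinoma epithelium markers were mixed, summing to 1529 CPM, with Krt8 low at 739 CPM. Of these 5 genes, 3 (Krt7, Epcam and Cdh1) lay more than 2-fold above all 6 primary tumors. The part of all these in its member levels was not tested. The ligand shares per kilobase were 46.4% for Tgfb1, 13.9% for Tgfb2 and 39.7% for Tgfb3.

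Beyond the members, 77 entries of 5 pathway lists (75 genes) were read from the same fit, and edgeR called 0 of the 72 genes that passed the filter. The median log2 fold changes of the lists lay between -0.21 and 0.19, beside 0.03 over all genes. DESeq2 called 1 gene, the target gene Lox, where it called 2.05% of all genes to which it gave an adjusted p. Of the named genes below, Dcn, Fmod, Lox, Mmp2, Col3a1 and Inhbe stood on a list of secreted genes higher in resistance that the study drew from these libraries, so their direction is no independent evidence.

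Among 15 activators of latent TGF-β, 6 were fitted higher in EMT6-PTR and 9 lower (median log2 fold change -0.21, and 0.06 without EMT6-PTR replicate 3). Itgb8, the β subunit of an integrin that frees latent TGF-β, had 6.99, 13.3 and 17.9 CPM in EMT6-P and 13.1, 41.7 and 41.9 in EMT6-PTR (log2 fold change 1.34, SE 0.53, adjusted p = 0.433, edgeR). EMT6-PTR replicate 1 was inside the EMT6-P range and the other two were above it. Itgb5, another integrin β subunit, was lower in every resistant tumor, with 539, 607 and 703 CPM in EMT6-P and 449.6, 484 and 496 in EMT6-PTR (log2 fold change -0.37, SE 0.16, adjusted p = 0.438, edgeR). Mmp2, a gelatinase, stood at 999 CPM in EMT6-PTR replicate 3 against 93.4 to 178 in the other tumors, and its log2 fold change of 1.80 was 0.24 without that tumor.

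The co-receptors and matrix binders counted 6 genes above 0 and 5 below of 11 (median 0.06). The small proteoglycans Dcn and Fmod, which bind TGF-β in the matrix, had log2 fold changes of 4.67 and 4.02 that were 0.62 and 1.49 without EMT6-PTR replicate 3. Fmod was higher in every resistant tumor, with 3.91, 3.40 and 10.5 CPM in EMT6-P and 13.2, 20.4 and 256 in EMT6-PTR (adjusted p = 0.423, edgeR). Cd109, a TGF-β co-receptor, had 111 to 131 CPM in EMT6-P and 128, 242 and 175 in EMT6-PTR (log2 fold change 0.62, SE 0.24, adjusted p = 0.433, edgeR), the groups overlapping through replicate 1.

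Of 15 SMADs and regulators, 14 passed the filter, 10 above 0 and 4 below (median 0.16). The changes were small, and the highest of the named ones was that of Tgif2, a SMAD co-repressor, at 15.6, 11.7 and 15.0 CPM in EMT6-P and 16.1, 19.9 and 21.5 in EMT6-PTR (log2 fold change 0.44, SE 0.20, adjusted p = 0.448, edgeR). Ski, a co-repressor, and Smurf2, a ubiquitin ligase acting on the receptors, had log2 fold changes of 0.32 and 0.21. Smurf2 was higher in every resistant tumor and Ski was not.

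The 19 TGF-β target genes counted 9 above 0 and 10 below (median -0.02, and 0.16 without EMT6-PTR replicate 3). Lox, which crosslinks collagen, had 138, 144 and 142 CPM in EMT6-P and 219, 408 and 452 in EMT6-PTR. Every EMT6-PTR value was above every EMT6-P value, and the EMT6-PTR values spread much more widely than the EMT6-P ones. The log2 fold change was 1.35 (SE 0.28), with adjusted p = 0.421 in edgeR and 0.00266 in DESeq2. It was 1.15 without EMT6-PTR replicate 3. Ccn2, a matricellular protein, was also higher in every resistant tumor, at 263, 287 and 292 CPM in EMT6-P and 333, 672 and 2807 in EMT6-PTR (log2 fold change 2.18, 0.84 without EMT6-PTR replicate 3, adjusted p = 0.427, edgeR). Col3a1, a fibrillar collagen, had a log2 fold change of 2.15 that was 0.70 without that tumor.

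Of 17 genes of the activin and BMP branch, 15 passed the filter, 11 at or above 0 and 4 below (median 0.19). Bmpr1a and Bmpr2, BMP receptors, had log2 fold changes of 0.63 (SE 0.26) and 0.34 (SE 0.17), with adjusted p = 0.437 and 0.48 in edgeR, and only Bmpr2 was higher in every resistant tumor. Inhbe, an activin subunit, was nearly silent at 0 to 1.09 CPM in EMT6-P and 1.88, 9.62 and 1.87 CPM in EMT6-PTR. Its log2 fold change of 2.90 (SE 1.22, adjusted p = 0.438, edgeR) rests on low counts.

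**Figure D5:**
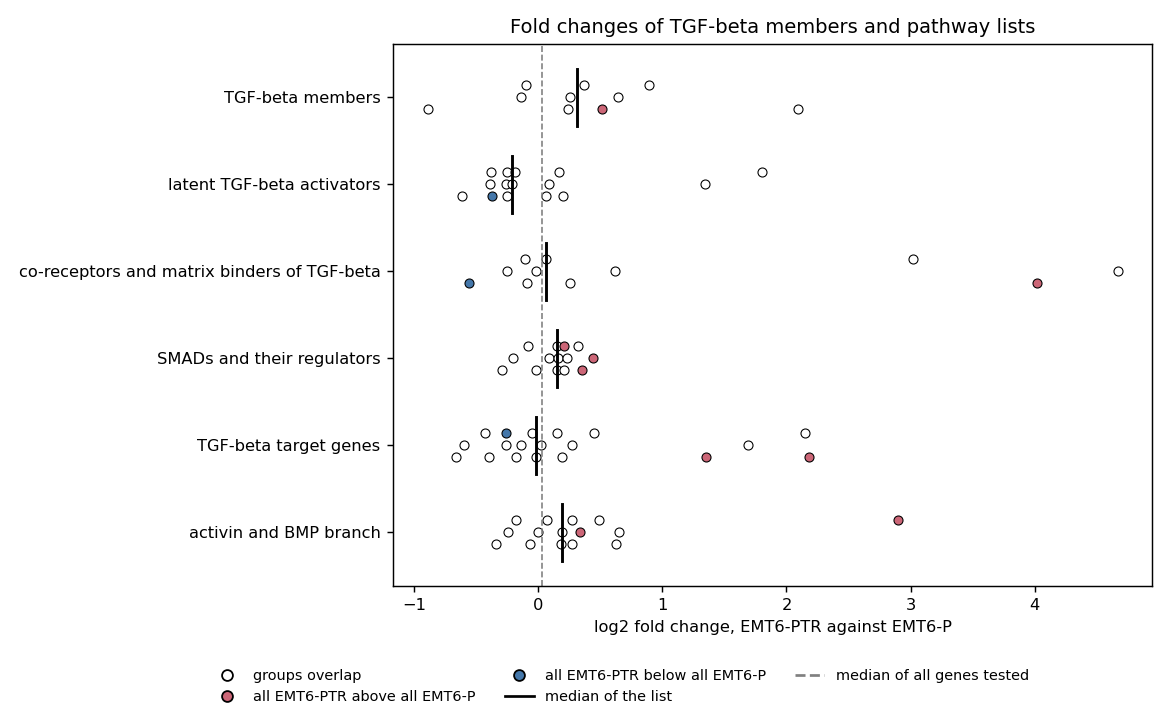
Log2 fold change, EMT6-PTR against EMT6-P (x axis), of the members and of the genes of each pathway list that passed the filter, 1 point per gene. Filled points mark genes whose tumor groups do not overlap, black lines the list medians (0.32 for the members) and the dashed line the median of all genes (0.03).

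The genes whose log2 CPM followed each ligand most closely over the 7 libraries were found by Pearson's r, given as a description. For Tgfb1 these were Crabp1 (0.995), Eef1akmt2 (0.994) and Igsf10 (0.993). For Tgfb2 they were Scn3a (0.981), Stk25 (0.969) and Gatad2a (0.967), and for Tgfb3 they were Pou2f1 (0.984), Tmem18 (0.977) and Gm9165 (0.972). All 7 points share the scaling of the libraries, and the lowest Tgfb1 values are those of EMT6-PTR replicate 3 and the metastasis, which stand apart from the rest in many genes.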

How the data were processed

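RNA was sequenced from TruSeq stranded mRNA libraries of 7 samples. The authors deposited RSEM estimated counts per gene, not normalized. The submitters' processing notes name FastQC 0.11.5, STAR 2.6.0a, RSEM 1.3.1 and GRCm38, and the strand setting is not given in the sources used here. Nothing in the labels says that replicates came from separate animals. The study's figure legend counts replicates as technical where it does not specify otherwise, and it specifies nothing else for this sequencing. The p-values therefore measure the spread between these samples. Estimated counts were rounded and the 6 primary tumors fitted with edgeR 4.0.16 in R 4.3.3 (filterByExpr, upper-quartile factors, glmQLFit and glmQLFTest, two-sided, Benjamini-Hochberg over 15645 genes, threshold 0.05). The scaling follows the methods of the study, which state no rule for their filter. CPM and the metastasis values used upper-quartile factors of all 7 libraries and, on the log scale, a prior count of 2. Of 53465 IDs, 50690 matched the GRCm38 annotation with version, 2670 without version and 105 not at all.

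Alternatives were TMM and DESeq2 size factors, DESeq2 1.42.0, limma-voom (limma 3.58.1), other filters (none, or at least 10 counts in every tumor), the metastasis as a group, a replicate block, and each tumor left out. The edgeR, DESeq2, limma-voom and replicate block fits were tested on simulated data, 3 tumors against 3. In these data 200 genes had a log2 fold change of 2. Where the simulated spread between tumors (dispersion) was 0.1, the fits called 94 to 95.5% of the changed genes, with 7 to 26 false calls. Where it was 0.4, the share fell to 1.5% in edgeR, 0.5% in limma-voom and 0% under the replicate block. DESeq2 then called 27%, with 40 false calls. With so wide a spread, 0 called genes do not show that changes are absent. Members and lists were chosen with earlier results of these data known. Named genes are all members, the called or up to 3 smallest-p genes of each pathway list, the 3 genes most correlated with each ligand, and markers near 0 or far from the other libraries. Genes named outside that rule, chosen after their values were seen, are CT010467.1, Gm37804, D030025P21Rik, Fabp4, Pf4, Emcn, Epcam and Cdh1. The numbers are not stated to pair tumors and were not taken as pairs. Same-numbered tumors had correlations of deviations of 0.259, 0.252 and 0.0387, against -0.285 to 0.0974 for differently numbered ones. These values do not decide whether the numbers are pairs.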

Additional observations from a re-analysis of the deposited data

How the results depend on the processing

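Of 140 values of the members' log2 fold changes under other settings, 133 kept their direction, 7 reversed and 0 passed the threshold. The reversed values were 0.00 for Tgfbr2 without EMT6-PTR replicate 1, then -0.46 for Tgfbr3, -0.08 for Ltbp1 and -0.06 for Ltbp3 without EMT6-PTR replicate 3, and for Ltbp2 -0.18 in limma-voom, -0.10 under the replicate block and -0.22 without EMT6-PTR replicate 2. The cause was not tested beyond the library left out.

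DESeq2 called 281 genes (138 higher, 143 lower) and 1 pathway gene, Lox, against 0 and 0 in edgeR, and the cause was not tested. Leaving out each tumor gave 0 to 0 genes, members and pathway genes called, and the log2 fold changes ranged from -0.22 to -0.03 (Tgfb1), -1.55 to -0.55 (Tgfb2), 0.39 to 0.66 (Tgfb3), 0.27 to 0.51 (Tgfbr1), -0.31 to 0.00 (Tgfbr2), -0.46 to 2.60 (Tgfbr3), -0.08 to 0.90 (Ltbp1), -0.22 to 0.76 (Ltbp2), -0.06 to 0.42 (Ltbp3) and 0.18 to 1.17 (Ltbp4). The number of members whose groups did not overlap ranged from 1 to 4, in an alternative added after seeing the data. It was 1 of 10 with all tumors, where 21.3% of all genes did not overlap. It was 4 without the third EMT6-PTR tumor, where 40.0% of all genes did not. It was 3 without the first, for which the share of all genes was not computed. The number of members at least 2-fold from the EMT6-PTR mean in the metastasis ranged from 3 to 4, with Ltbp2 at -0.98 without EMT6-PTR replicate 2.

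The numbers share no stated pairing. With the replicate block, 0 genes were called. EMT6-P replicate 2 correlated with EMT6-PTR replicate 3 at 0.077, above the 0.0387 of that tumor with its own number. The same-number values of replicates 1 and 2, 0.259 and 0.252, were above those of all differently numbered tumors. Each member held at least 264 counts in every library, and the common dispersion over genes was 0.246 in EMT6-PTR against 0.0266 in EMT6-P.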
